A study of Homo sapiens with 4 samples.

Results

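The 10 genes described here encode the main lysine acetyltransferases of human cells: EP300, CREBBP, KAT2A, KAT2B, KAT5, KAT6A, KAT6B, KAT7, KAT8 and HAT1. They were named as a list of enzymes with earlier results of these data known, though the rule itself uses no peak value, and all 10 were found by symbol among the 19974 protein-coding genes of RefSeq on chromosomes 1 to 22 and X. The assay was ChIP-seq with an antibody to the HA epitope tag, in untreated cells of a subclone of the established line MDA-MB-231 (triple-negative breast carcinoma, human), with wild type as its genotype label. Per the labels the precipitated protein was PD-L1, and 2 ChIP replicates were set against 2 input libraries; the labels do not say how the tag was brought into the cells. The question asked of these genes is whether, and at which places in them, the ChIP recovered chromatin.

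Lysine acetyltransferases move an acetyl group from acetyl-CoA to lysines of histones and of many other proteins. EP300 and CREBBP are broad transcriptional coactivators, KAT2A and KAT2B work within the SAGA and ATAC coactivator complexes, and KAT5 to KAT8 form the MYST family, each in complexes of its own. HAT1 acetylates newly made histone H4 before it enters chromatin. PD-L1, the product of CD274, is best known as a surface ligand of the T-cell receptor PD-1; it is itself acetylated, by EP300, so 1 of the 10 enzymes acts on the precipitated protein.

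On these chromosomes replicate 1 had 166548 deposited peaks and replicate 2 had 93591, which joined into 45771 shared regions. A shared region is the union of peaks that overlap by at least 1 bp and include a peak of each replicate. Fold enrichment and −log10 q below are the authors' own values for each peak; the list medians were 3.14 and 1.91 in replicate 1, and 2.27 and 1.80 in replicate 2. No mock precipitation was analysed here, so recovery of chromatin without the target cannot be told apart from binding. Peak names of replicate 2 all carry the word Merge, which the labels do not explain, so whether that list came from replicate 2 alone is not known.

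Every one of the 10 genes had at least 1 peak of each replicate, and 1 shared region, within its span plus 10 kb on each side. Among all protein-coding genes 83.2% had a peak of replicate 1 there, 74.5% a peak of replicate 2 and 59.5% a shared region. The acetyltransferase genes are long, with a median span of 74356 bp against 24170.5 bp over all protein-coding genes, so counts per gene were also set beside genes of like length. Inside the gene itself a peak of replicate 1 was present in 10 of 10 (77.1% of all protein-coding genes), a peak of replicate 2 in 7 (60.4%) and a shared region in 8 (48.9%). KAT2A, KAT8 and HAT1 lacked the peak of replicate 2, and KAT8 and HAT1 the shared region. Here and below, a shared region counts at a place when any part of it lies there. At KAT2A only the replicate 1 part met the gene. The count of 8 was 3 (15.8%) when only peaks whose −log10 q reached 2 were kept, 3 (19.2%) with the 50% of peaks of higher fold and 4 (25.7%) with a reciprocal overlap of 50%. Together the 10 windows held 104 peaks of replicate 1, 50 of replicate 2 and 31 shared regions. The median per gene was 8.5 peaks in replicate 1, against 4 over all protein-coding genes, and 3 in replicate 2, against 2.

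The stretches before the starts of 4 genes show how differently the peaks sat at these promoters. Each line gives the 250 bases before the start of the gene on its own strand, from the RefSeq promoter table of GRCh38.p14 (the build hg38), and capitals mark bases inside a peak of replicate 1. No base of these 4 stretches lay in a peak of replicate 2.
HAT1 (chr2:171922211-171922460, plus strand): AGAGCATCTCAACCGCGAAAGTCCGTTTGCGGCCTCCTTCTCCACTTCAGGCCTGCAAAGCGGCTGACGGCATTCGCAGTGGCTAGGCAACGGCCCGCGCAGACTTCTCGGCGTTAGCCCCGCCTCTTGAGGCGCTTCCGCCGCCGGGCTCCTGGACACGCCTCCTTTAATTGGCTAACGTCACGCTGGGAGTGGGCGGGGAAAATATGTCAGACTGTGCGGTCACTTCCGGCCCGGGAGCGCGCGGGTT
KAT2A (chr17:42121368-42121617, minus strand): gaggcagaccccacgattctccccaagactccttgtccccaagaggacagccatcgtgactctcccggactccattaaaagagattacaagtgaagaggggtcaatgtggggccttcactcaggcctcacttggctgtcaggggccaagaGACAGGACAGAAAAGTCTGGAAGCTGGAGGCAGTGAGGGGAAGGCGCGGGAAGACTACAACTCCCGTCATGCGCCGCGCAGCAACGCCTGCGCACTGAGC
KAT2B (chr3:20040196-20040445, plus strand): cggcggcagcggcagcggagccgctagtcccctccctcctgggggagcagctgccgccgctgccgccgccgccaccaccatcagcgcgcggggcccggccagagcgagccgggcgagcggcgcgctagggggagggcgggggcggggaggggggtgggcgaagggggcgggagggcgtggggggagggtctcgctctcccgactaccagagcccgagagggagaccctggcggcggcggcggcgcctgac
EP300 (chr22:41092342-41092591, plus strand): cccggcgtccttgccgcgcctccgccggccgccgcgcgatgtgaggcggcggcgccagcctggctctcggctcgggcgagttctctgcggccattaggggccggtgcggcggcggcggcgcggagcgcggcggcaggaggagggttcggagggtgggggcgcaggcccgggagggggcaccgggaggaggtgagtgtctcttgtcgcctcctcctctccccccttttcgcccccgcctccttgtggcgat
The HAT1 stretch was covered over all 250 bases, the KAT2A stretch over the 100 bases next to the start, and the other two had no base in a peak. The 4 stretches had GC shares of 64.0% (HAT1), 58.8% (KAT2A), 80.8% (KAT2B) and 76.8% (EP300), beside a median of 62% over 22132 promoters of protein-coding genes. Of the 11 promoters listed for 8 of the genes (250 bases before to 50 after the start), 7 met a peak of replicate 1, with 49.9% of all promoters, 1 a peak of replicate 2 (13.2%) and 4 a shared region (20.2%). KAT6B and CREBBP have more than 1 of these promoters, and all those of KAT6B met a peak of replicate 1.

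**Figure D1:**
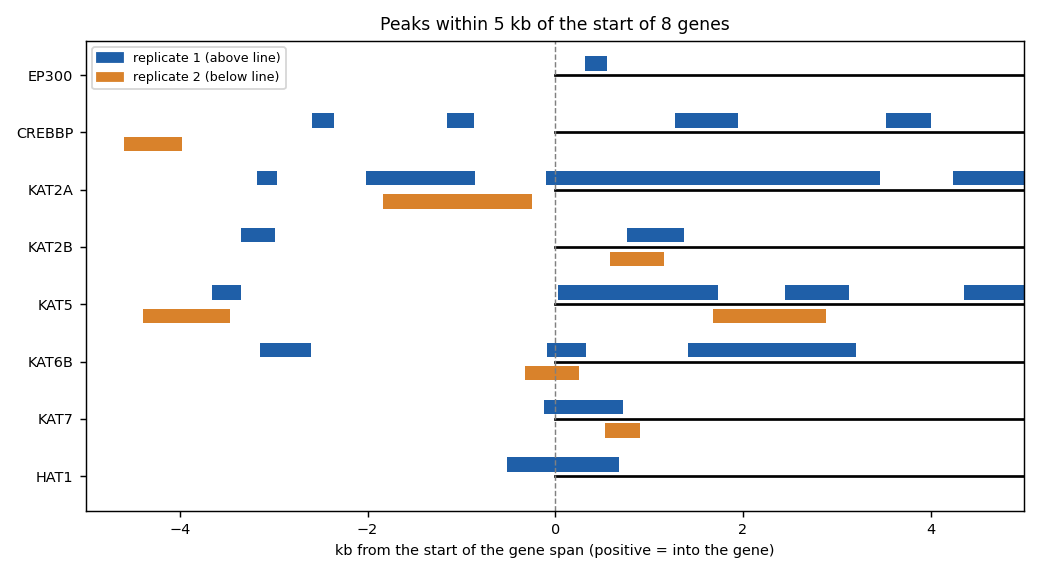
Peaks of replicate 1 (blue, above each line) and replicate 2 (orange, below) within 5 kb of the start of the gene span, for the 8 genes whose strand the promoter table gives. The horizontal axis is the distance in kb from the start, positive into the gene, and peaks of both replicates lie across the start only at KAT6B.

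EP300 had few peaks for its size. Its span (22:41092592-41180077, 87486 bp) and flanks held 2 peaks of replicate 1 and 2 of replicate 2, while genes of like length and local peak density had medians of 6 and 4. Like genes are here all protein-coding genes within 1.5 times of the span length and within 1.5 times of the number of peaks per Mb within 1 Mb of the gene. Of 855 such genes in replicate 1, 21.8% had 2 peaks or fewer, and 35.1% of 963 in replicate 2. A peak of replicate 1 lay just inside the start, at positions 320 to 555 from it, with a fold of 3.37 and a −log10 q of 2.08. The nearest peak of replicate 2 was 43217 bp away. The single shared region lay in the last part of the gene (22:41177486-41178999), with folds of 3.38 in replicate 1 and 2.94 in replicate 2. It ranked 1545 of 45771 shared regions by the mean of its ranks in fold, the best place of any region in the 10 windows.

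CREBBP, the closest relative of EP300, had the most peaks of the 10 genes. Its window (span 16:3725054-3880713, 155660 bp) held 32 peaks in replicate 1 and 17 in replicate 2, covering 17.4% and 7.25% of the sequence. The neighbourhood was dense too, with 154 and 85.0 peaks per Mb, and like genes had medians of 22 and 12. The counts thus lay above the medians and inside the middle range of like genes, which ran from 9 to 37 in replicate 1 and from 5 to 19 in replicate 2. All 10 shared regions of CREBBP lay in the gene itself, and 1 of them reached the window at its end, which is 1 kb on each side of a gene end throughout. That region (16:3725248-3728942) held 1 peak of replicate 1 (fold 3.21) and 2 of replicate 2. The replicate 2 peak in the end window had a fold of 2.21, and the one with 2.61 lay further inside the gene. At the start there was a peak of replicate 1 only, at positions −1158 to −863 (fold 3.30).

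The paired genes KAT2A (GCN5) and KAT2B (PCAF), which encode alternative catalytic subunits of SAGA and ATAC, differed in size and surroundings. KAT2A is short (17:42113111-42121367, 8257 bp) and lies among DHX58, HSPB9 and RAB5C. Its window held 9 peaks of replicate 1 and 5 of replicate 2, with medians of 6 and 3 in like genes, and peaks covered 37.8% and 19.5% of it. Both ends met a shared region. At the end of the gene, the region 17:42110491-42113758 joined peaks with folds of 3.13 and 3.98 in replicate 1 and of 2.22 in replicate 2. The replicate 1 peak with fold 3.98 lay outside the gene-end window, within DHX58, an RNA sensor of antiviral defence, and only the one with 3.13 met KAT2A. At the start, the region 17:42121619-42123389 (folds 2.96 and 2.19) lay wholly upstream of KAT2A and covered HSPB9, a small heat-shock protein gene. A further peak of replicate 1 ran from position −100 to 3456 (fold 2.95), and the replicate 2 peak at −1834 to −252 did not overlap it. No peak of replicate 2 lay inside the KAT2A span.

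KAT2B had more peaks of replicate 1 than most like genes. Its span (3:20040446-20154404, 113959 bp) and flanks held 11 peaks in replicate 1 and 2 in replicate 2. Of 232 like genes in replicate 1, 4 (1.72%) had at least as many, and their median was 2. In replicate 2, 43.1% of 401 like genes had at least 2, with a median of 1. The window held 82.1 peaks of replicate 1 per Mb, against 12.3 per Mb outside it within 1 Mb on each side of the midpoint. The ratio was 6.66, and over all protein-coding genes its median was 1.10. The same ratio in replicate 2 was 1.47, beside a median of 0.970. Of the 11 peaks, 10 met the gene, and 9 of these lay between its end windows. The folds of these 9 ran from 2.68 to 3.37, with a highest −log10 q of 2.53. Over all 11 the median fold was 2.96, below the list median of 3.14. The comparison with like genes was not made under a filter on q or fold. Of all 11, a single peak overlapped replicate 2, in the start region 3:20041026-20041819, with folds of 3.19 in replicate 1 and 2.1 in replicate 2. It sat inside the gene, the peaks running from 763 to 1373 and from 580 to 1154 from the start. The difference between replicates over KAT2B was not tested, since each replicate is 1 sample.

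**Figure D2:**
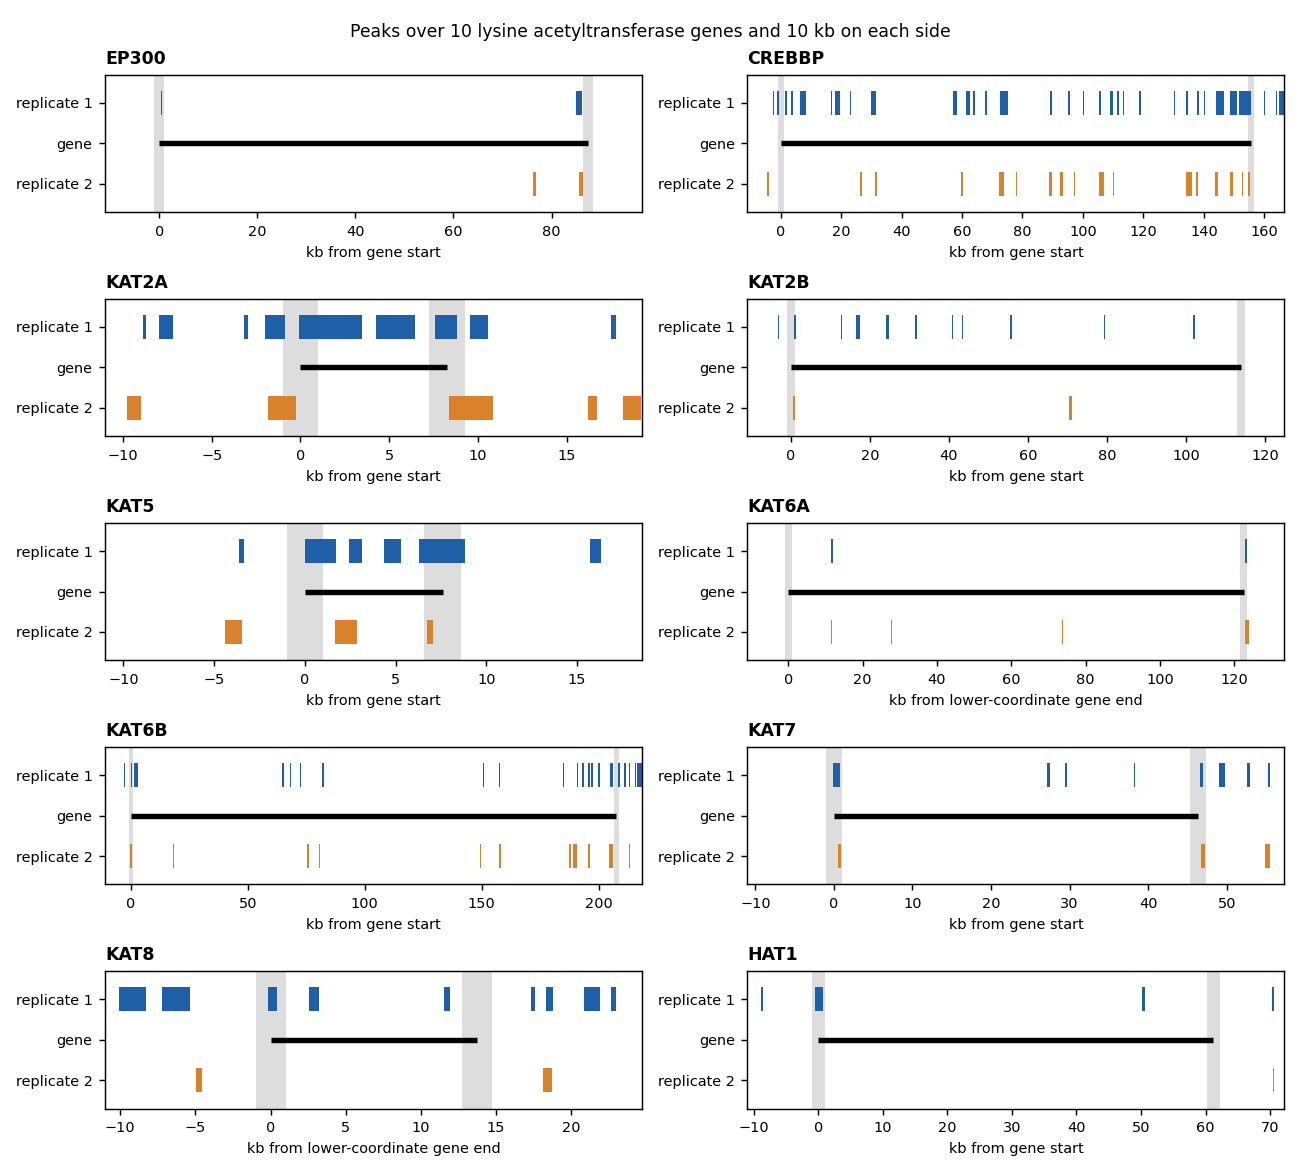
Peaks of replicate 1 (blue) and replicate 2 (orange) over each gene (black bar) and 10 kb on each side, in kb from the gene start or, for KAT6A and KAT8, from the lower-coordinate end. Grey bands are the 1 kb gene-end windows, and very narrow peaks are drawn slightly wider so that they can be seen; KAT2B shows the row of peaks that replicate 2 lacks.

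KAT5 (TIP60), the acetyltransferase of the complex of that name in DNA repair and transcription, lay in the densest neighbourhood of the 10 in each replicate, at 198 peaks per Mb (replicate 1) and 126 (replicate 2). The short gene (11:65712018-65719604, 7587 bp) had 6 peaks in replicate 1 and 3 in replicate 2, with medians of 6 and 4 in like genes. Shared regions met both ends and covered 24.2% of the window. The start region (11:65712047-65715147, folds 3.14 and 2.00) reached the start through replicate 1, whose peak ran from position 29 to 1737. The replicate 2 peak of that region lay further inside the gene, beyond the start window. At the end, peaks of both replicates were present (11:65718323-65720847, 3.15 and 1.98), where KAT5 overlaps RNASEH2C, a subunit of ribonuclease H2, by 1932 bp. A peak there cannot be given to one of these genes.

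KAT6A (MOZ) and KAT6B (MORF), catalytic subunits of complexes with BRPF proteins, differed in number. KAT6A (8:41929479-42051987, 122509 bp) had 2 peaks of replicate 1, where like genes had a median of 7, and 4 of replicate 2, at their median of 4. Both peaks of replicate 1 were shared. One region lay beyond the higher-coordinate end (8:42052453-42053495), with folds of 3.27 and 2.57, and the other inside the gene (8:41940846-41941324), with 3.43 and 2.48. These ranked 4535 and 2304 of 45771. The strand of KAT6A is not in the table used, so its start and end are not named.

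KAT6B (10:74824936-75032624, 207689 bp), the longest of the 10, had 21 peaks in replicate 1 and 11 in replicate 2, beside medians of 16 and 9 in like genes. It had 7 shared regions, of which 5 met the gene. Among the 8 genes of known strand, KAT6B alone had peaks of both replicates across the start: positions −91 to 331 in replicate 1 and −321 to 256 in replicate 2. Of the 250 bases before its first listed start site (10:74825255), 250 were inside the replicate 1 peak and 188 inside the replicate 2 peak. Enrichment there was among the lowest, with a fold of 2.52 and a −log10 q of 1.39 in replicate 1, and 1.98 and 1.6 in replicate 2. The region (10:74824615-74825267) ranked 45227 of 45771.

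KAT7 (HBO1) works with BRPF or JADE proteins and also at replication origins. It had fewer peaks than the medians of like genes, and shared ones at both ends. The gene (17:49788681-49835026, 46346 bp) held 8 peaks of replicate 1 and 3 of replicate 2 in its window, against medians of 13 and 7. Of 1163 like genes in replicate 1, 28.1% had 8 or fewer, and of 941 in replicate 2, 22.2% had 3 or fewer. A shared region met an end in 62.8% of its like genes. All 3 peaks of replicate 2 overlapped replicate 1. The start region (17:49788562-49789579) had folds of 3.31 in replicate 1 and 2.12 in replicate 2, and −log10 q values of 2.53 and 2.04. The first 430 bp of KAT7 overlap FAM117A, and the region meets both genes. At the end (17:49835268-49835897) the folds were 2.75 and 1.97, and the rank was 44862.

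KAT8 (MOF), the H4 lysine 16 acetyltransferase of the MSL and NSL complexes, and HAT1 had no shared region in the gene. KAT8 (16:31117664-31131393, 13730 bp) had 9 peaks of replicate 1, with a median of 6 in like genes, and 2 of replicate 2, with a median of 3. It is tightly flanked by BCKDK (23 bp away) and PRSS8 (39 bp), and 6 of the 9 peaks lay in the flanks. A replicate 1 peak met its lower-coordinate end (16:31117492-31118081, fold 3.20), and the nearest peak of replicate 2 was 4386 bp away. That peak also met an end of BCKDK, so it cannot be given to one of these genes. The one shared region of KAT8 (16:31135801-31136451, folds 3.06 and 2.38) lay in the flank, at an end of PRSS8.

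HAT1 (2:171922461-171983686, 61226 bp) had 4 peaks of replicate 1, at the median of like genes, and 1 of replicate 2, where that median was 2. The start carried one of the better peaks of replicate 1 among the 10 genes: positions −519 to 680, fold 3.66 and −log10 q 2.70, in the top 5.10% of that list by q. The nearest peak of replicate 2 was 69713 bp away. The only shared region was downstream (2:171992762-171993068), with folds of 2.92 in replicate 1 and 3.20 in replicate 2, the highest replicate 2 fold of the 10 windows.

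**Figure D3:**
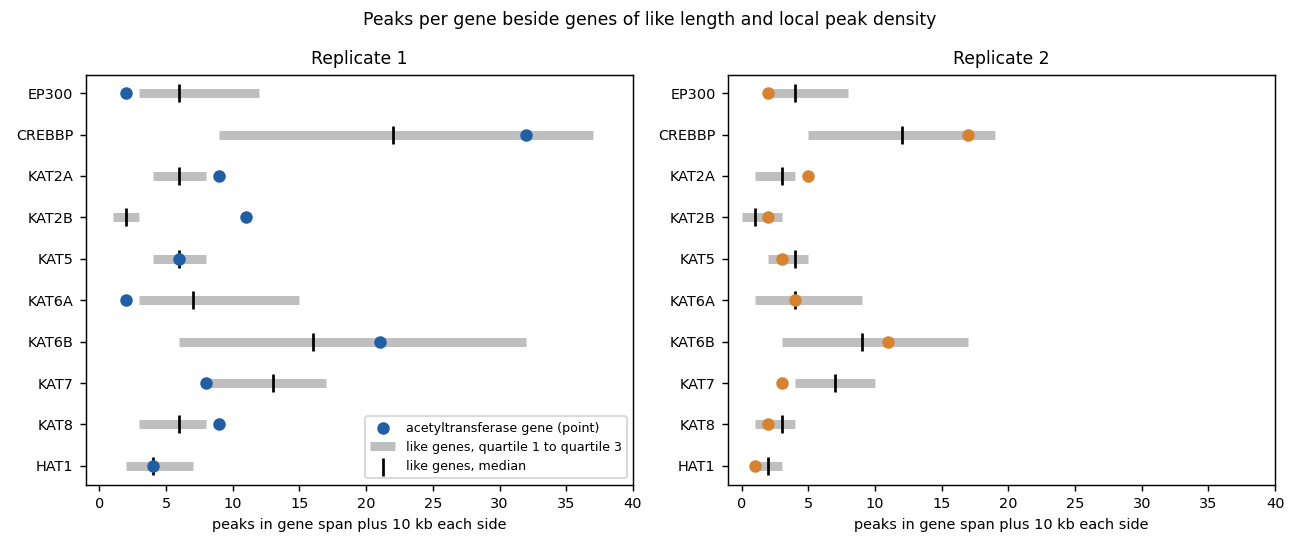
Peaks in the span plus 10 kb of each acetyltransferase gene (coloured points), beside the median (black tick) and the middle range (grey bar, quartile 1 to quartile 3) of protein-coding genes of like length and local peak density. In replicate 1 KAT2B has 11 peaks and like genes a median of 2; EP300 and KAT6A lie below their grey bars with 2 peaks each.

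Beside like genes, the 10 genes lay on both sides of the medians. In replicate 1, 5 genes lay above the median of like genes, 2 at it and 3 below, and in replicate 2 the numbers were 4, 1 and 5. KAT2A, KAT2B, CREBBP and KAT6B were above it in both replicates, and EP300 and KAT7 below it in both. Of these, KAT2A lay above the middle range of like genes in both replicates, and KAT2B in replicate 1 only. CREBBP and KAT6B lay inside that range in both. EP300 lay below it in replicate 1 only, and KAT7 in replicate 2 only. By shared regions, 4 genes were above the median, 4 at it and 2 below.

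Gene ends gave higher shares. A peak of replicate 1 met a gene-end window in 10 of 10 genes, with 68.8% of all protein-coding genes, and a peak of replicate 2 in 7 of 10, with 37.1%. A shared region did so in 7 of 10 genes, CREBBP, KAT2A, KAT2B, KAT5, KAT6A, KAT6B and KAT7, with 32.9% of all protein-coding genes; EP300, KAT8 and HAT1 had none. The count moved with the settings: it was 1 (7.55% of all protein-coding genes) when only peaks whose −log10 q reached 2 were kept, 2 (7.65%) with the 50% of peaks of higher fold and 4 (9.90%) with a reciprocal overlap of 50%. An earlier count over a wider list of acetylation enzymes, which holds these genes, was known when they were chosen, so these shares are no independent support. Like genes had a shared region at an end in 10.2% (those of KAT2B) to 74.4% (those of KAT5), and their 10 shares add up to 3.88 genes. For the replicates alone they add up to 7.99 genes in replicate 1 and 4.26 in replicate 2. The same 7 genes had a peak of each replicate in the same gene-end window, with 30.5% of all protein-coding genes. No chance test was made.

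Starts and ends could be told apart for 8 of the 10 genes. All 8 had a replicate 1 peak in the start window, with 64.7% of 15813 protein-coding genes of known strand, and 4 of 8 had one of replicate 2 (KAT2A, KAT2B, KAT6B and KAT7), with 26.0%. A shared region met the start window in 5 of 8, with 24.1%, and the end window in 4 of 8 (CREBBP, KAT2A, KAT5 and KAT7), with 17.6%. The start region of KAT5 met that window through replicate 1 only.

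Within the 10 windows, the number of peaks met per 10 kb was highest at the gene ends, as it was over all genes. The gene-end windows held 4.0 peaks of replicate 1 per 10 kb, against 2.72 over all protein-coding genes, and 2.25 peaks of replicate 2, against 1.15. Shared regions reached 2.50 per 10 kb there, against 1.04. In the rest of the gene the values were close to those of all genes, with 0.746 against 0.688 in replicate 1, 0.385 against 0.389 in replicate 2 and 0.186 against 0.190 for shared regions. The flanks had 1.56 against 1.01, 0.556 against 0.552 and 0.333 against 0.315. These densities rest on 16, 9 and 10 intervals at gene ends. A peak that met a gene-end window counted there whole, but only the bases of the window were divided by. Wide peaks thus raise the gene-end values and lower the others, in both sets of genes.

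**Figure D4:**
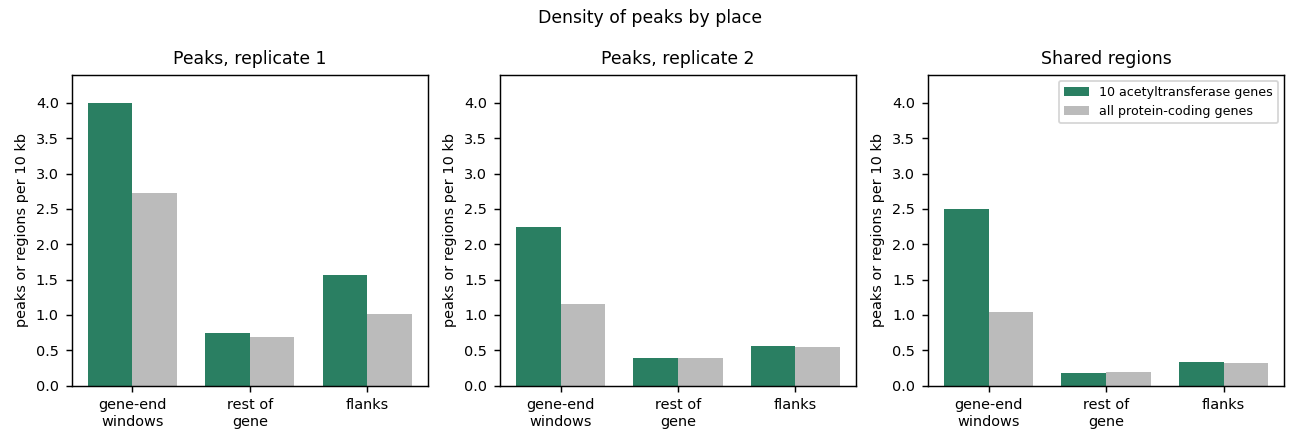
Peaks of each replicate and shared regions per 10 kb of sequence in gene-end windows, in the rest of the gene and in the flanks up to 10 kb, for the 10 acetyltransferase genes (green) and all protein-coding genes (grey). Bars are sums over genes with no error, and a peak that met a gene-end window counted there whole, whatever its width. At gene ends the green bars stand at 4.0, 2.25 and 2.50 and the grey bars at 2.72, 1.15 and 1.04.

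Overlap between the replicates was most frequent at gene ends. Of the 104 replicate 1 peaks, 33 overlapped a peak of replicate 2 (31.7%, Wilson 95% interval 23.6% to 41.2%), with 28.7% over the whole list. Of the 50 replicate 2 peaks, 31 overlapped replicate 1 (62%, 48.2% to 74.1%), with 52.0% over the whole list, which lies inside the interval. Over peaks in the windows of all protein-coding genes the shares were closer, at 30.2% in replicate 1 and 56.8% in replicate 2. These intervals cover counting error only, and peaks of 1 gene are not independent. CREBBP supplied 32 of the 104 and 17 of the 50 peaks, and KAT6B 21 and 11. Among peaks whose −log10 q reached 2 the shares lay below those of the lists, but on few peaks. They were 3 of 44 in replicate 1 (6.82%, against 10.5% over the list) and 3 of 16 in replicate 2 (18.8%, against 24.3%). At gene ends 10 of 16 replicate 1 peaks and 9 of 9 replicate 2 peaks overlapped, with 35.9% and 72.4% at the ends of all protein-coding genes. Between the end windows the counts were 16 of 60 and 17 of 31, with 29.3% and 54.6%. The 71 replicate 1 peaks without a partner lay a median of 3317 bp from the nearest replicate 2 peak, with a range from 85 bp at KAT2A to 79026 bp at HAT1.

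Peak strength was close to that of the whole lists. Fold enrichment had a median of 3.13 (range 2.52 to 3.98) in replicate 1 and 2.26 (1.88 to 3.20) in replicate 2, and 52 of 104 and 24 of 50 peaks were above the list medians. The −log10 q reached 2.99 at most in replicate 1, beside KAT2A, and 2.68 in replicate 2, beside HAT1. None of the 104 and 50 peaks reached 3, which 2.00% of the replicate 1 list and 3.01% of the replicate 2 list did. Median widths were 518.5 and 574.5 bp, with 610 and 636 bp in the lists. The order of the genes differed between replicates: KAT6B and KAT2B had the lowest median folds in replicate 1 (2.87 and 2.96), and KAT5 and KAT7 in replicate 2 (2.00 and 2.03).

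**Figure D5:**
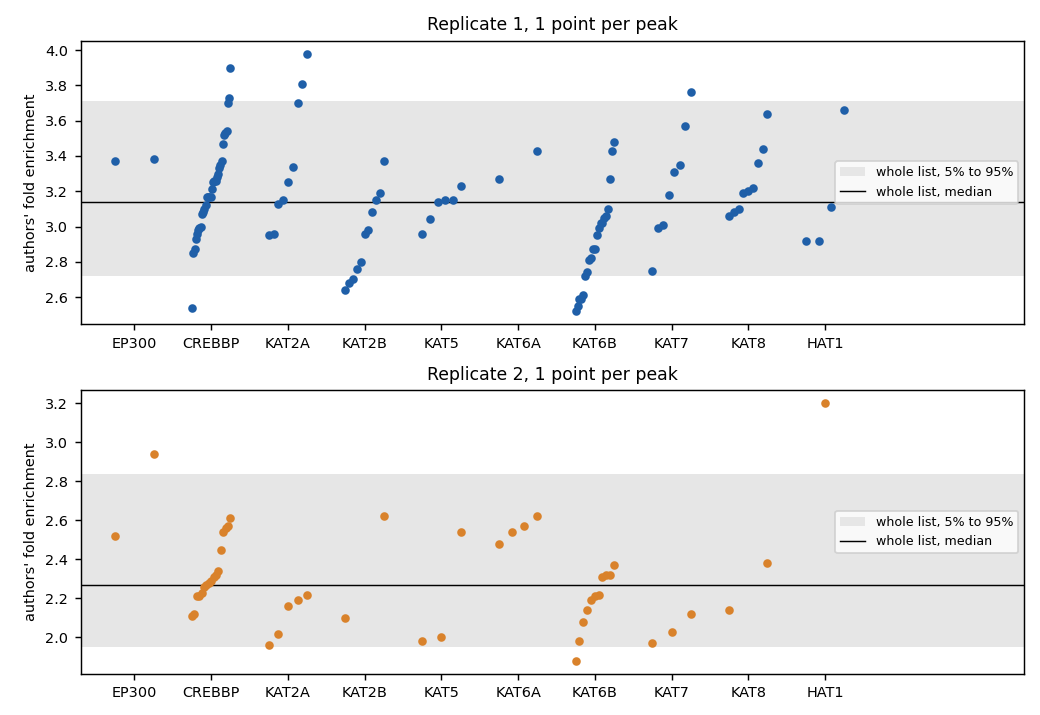
The authors' fold enrichment of every peak in the 10 windows, 1 point per peak sorted within each gene, for replicate 1 (upper panel) and replicate 2 (lower panel). The grey band runs from the 5% to the 95% point of the whole list and the line is its median, 3.14 and 2.27; most points lie in the band, and HAT1 has the highest replicate 2 value at 3.20.

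The promoter letters were compared too, over the 250 bases before each of the 11 start sites listed for 8 of the genes. Several start sites belong to KAT6B or CREBBP, so the 11 are not separate genes. The median GC share was 68.0% and the median number of CpG pairs 27, with 62% and 16 over 22132 promoters. On either strand, the GC box (GGGCGG) was found in 6 of 11, from 4 genes, with 53.7% of all promoters. The core of the CREB site (TGACG) was found in 5, from 5 genes, with 24.1%. The ETS core (CCGGAAG) was found in 3, from 3 genes, with 10.7%. The CCAAT box (CCAAT) occurred in 2 of 11 (32.7% of all), the NRF1 core (GCGCATG) in 1 (4.54%), the E-box (CACGTG) in 1 (7.37%) and the YY1 core (AAGATGG) in none (3.36%). In the HAT1 stretch printed above, a CCAAT box begins on the other strand at position −81, a GC box at −57, an ETS core on the other strand at −25, and TGACG at −186 and, on the other strand, at −72. KAT2A has the NRF1 core at −33 and TGACG at −36, which share letters, both on the other strand and both inside the replicate 1 peak. KAT2B, outside any peak, has GC boxes at −117, −111 and −86, and EP300 has no match to any of the 7 motifs. Such matches describe letters and are not sites.

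Partner subunits and further acetyltransferases had gene-end shares near that of all genes. Over 74 other genes of the pathway, taken from lists of subunits and of further acetyltransferases, 22 (29.7%) had a shared region at a gene end, against 32.9% of all protein-coding genes, and 40 (54.1%) in the span, against 48.9%. By complex, gene-end counts were 8 of 17 for TIP60, 4 of 9 for MOZ, MORF and HBO1, 5 of 24 for SAGA and ATAC, 2 of 11 for MSL and NSL, 1 of 3 for partners of HAT1 and 3 of 13 for further acetyltransferases. The shares by list ran from 18.2% for MSL and NSL to 47.1% for TIP60. Of the 74 genes, 8 lie on X.

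In TIP60, the best-ranked regions lay at VPS72, a histone H2A.Z chaperone (1:151189889-151190197, folds 3.75 and 2.44 in replicates 1 and 2), and RUVBL2, an AAA ATPase (19:48992538-48995094, 3.38 and 2.25). TRRAP, the large scaffold that TIP60 shares with SAGA, followed (7:99012348-99013543, 2.99 and 2.57). In SAGA and ATAC, TADA1 (3.05 and 2.72) and ZZZ3 (3.42 and 2.1) had a region at the start. The BRPF scaffold BRPF1, which joins KAT6A, KAT6B or KAT7, had one of 7822 bp over its end and the neighbouring OGG1 (3.42 and 2.29). JADE2 (2.82 and 2.12) and ING4 (2.94 and 1.92), partners of KAT7, had weaker ones at their ends. MSL1, the scaffold of the MSL complex with KAT8, had a region at its start (17:40120445-40123597, 3.66 and 2.40), as did MCRS1 of the NSL complex (3.60 and 2.1). For HAT1 the only partner with a region was NASP, a histone chaperone (3.05 and 2.1). Among further acetyltransferases NAA60 (2.99 and 2.50), NAA40 (3.16 and 1.97) and ESCO1 (3.03 and 2.09) had one. In the span plus 10 kb, 63 of the 74 genes had a peak of replicate 1, with 83.2% of all protein-coding genes. A peak of replicate 2 was there in 55, with 74.5%. No peak of either replicate lay within 10 kb of ATAT1, KANSL1, MSL3, TADA2A, TAF1, TAF9 or TAF9B. The share of all protein-coding genes with neither was not computed.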

How the data were processed

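ChIP DNA and inputs of MDA-MB-231 cells were sequenced by the authors; per the submitters' processing notes, Bowtie2 2.2.9, MACS2 2.1.1 and the build hg38 were used. The authors deposited 1 list of broad peaks per replicate. Per the layout of that format, each deposited line holds a score (column 5, the whole-number part of 10 times column 9 in 99.99% of lines), a fold enrichment (a ratio, column 7), a −log10 p-value (column 8) and a −log10 q-value (column 9). The labels do not name the peak-calling settings. No reads were used, so the depth is unknown, and inputs entered only through the caller.

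Computed here, with Python 3.11.15, pandas 2.3.3 and scipy 1.17.1, were overlaps of peaks with gene spans of GRCh38.p14 (RefSeq), windows of 1 kb around gene ends and flanks of 10 kb. A peak in several places counted as gene end first, then gene, then flank. Strand came from the RefSeq promoter table, by symbol; 8 of the 10 genes matched. Local density counted peak centres within 1 Mb of the gene's midpoint, outside the gene and flanks. Counting was checked on simulated intervals. Named genes were all 10 members and, in each other list, up to 3 genes with the best-ranked shared region at a gene end. Members and lists were chosen with earlier results of these data known, so no test was made and values are descriptions. Alternatives were filters on q and fold, equal list sizes, reciprocal overlap, merging, other windows and flanks, other bounds of likeness, and each replicate alone.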

Additional observations from a re-analysis of the deposited data

How the results depend on the processing

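Among the 10 genes, 7 had a shared region at a gene end. Counting a peak of 1 replicate there, it was 10 in replicate 1 alone and 7 in replicate 2 alone. The count was 6 with equal numbers of peaks or windows of 500 bp, and 9 with windows of 5 kb. It fell to 1 (KAT7) when only peaks whose −log10 q reached 2 were kept, beside 7.55% of all protein-coding genes, to 2 (CREBBP and KAT6A) with the 50% of peaks of higher fold (7.65%), and to 4 (KAT2A, KAT2B, KAT6B and KAT7) with a reciprocal overlap of 50% (9.90%). With the higher folds, CREBBP counted through a replicate 2 peak of fold 2.61 that lay outside the end window. The count with a shared region in the gene (8) was 10 in replicate 1 alone and 7 in replicate 2 alone. It fell to 3, 3 and 4 under the same 3 alternatives, with 15.8%, 19.2% and 25.7% of all protein-coding genes. The cause was not tested. The share of replicate 1 peaks that overlapped replicate 2 (31.7%) was 6.82% (3 of 44) with the q filter and 13.5% (7 of 52) with the higher folds. With reciprocal overlap it was 10.6% (11 of 104). The share of replicate 2 peaks (62%) was 18.8% (3 of 16), 28.0% (7 of 25) and 22% (11 of 50) under the same alternatives. Over the whole lists these were 10.5%, 11.2% and 9.43%, and 24.3%, 19.7% and 16.8%. The numbers of genes with a peak of each replicate, and above the median of like genes, stayed within 1.5 times under their alternatives. Requiring a peak of each replicate in the same gene-end window was chosen after seeing the data. No paired analysis was possible because the results are counts from 1 peak list per replicate, with no test.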
